A study of Homo sapiens with 6 samples.

Results

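The genes described are 6 that make and export microRNAs: DROSHA and DGCR8, which cut the primary transcript in the nucleus, XPO5, which carries the cut hairpin to the cytoplasm, and DICER1, TARBP2 and PRKRA, which finish it there. They were taken by name from 26613 genes with at least 1 count, and all 6 passed the filter on low counts that left 15607 genes to test. The libraries came from 293T cells, a readily transfected derivative of a human embryonic kidney line. In the mimic group, 3 cultures received a synthetic miR-941 duplex at 10 nM with a cationic lipid reagent, 24 h after plating. In the mock group, 3 cultures received a scrambled oligonucleotide, for which no concentration of its own was recorded. All cultures were transfected, so no value describes cells left without an oligonucleotide, and the labels state no time from transfection to harvest. The labels call the transfections independent replicates of a single cell line.

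A microRNA starts as a hairpin within a longer transcript. The nuclear RNase III enzyme DROSHA, held by its RNA-binding partner DGCR8, cuts the hairpin out, and XPO5 exports it together with Ran bound to GTP. In the cytoplasm the RNase III enzyme DICER1, with TARBP2 or PRKRA at its side, removes the loop and leaves a duplex, of which an Argonaute protein keeps 1 strand. A synthetic duplex resembles the product of DICER1 and enters the pathway after that step. The gene tables give mRNA levels and measure neither the proteins nor the microRNAs themselves.

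The sequences below show the strand that the mimic supplies and the natural hairpin from which the 6 genes would make it. The mature strand has its seed, bases 2 to 8, in capitals, and the hairpin has the mature strand in capitals. Both come from RefSeq on GRCh38.p14, and the hairpin lies at chr20:63919449-63919520 on the plus strand. RefSeq holds 5 copies of this mature strand, and the hairpins found there were those of MIR941-1, MIR941-3, MIR941-4 and MIR941-5. None of the 5 MIR941 genes of GENCODE release 29 was listed with a count in any library. The annotation used for counting was not stated, so this absence does not show whether they were transcribed.
hsa-miR-941: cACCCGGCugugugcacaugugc
MIR941-1: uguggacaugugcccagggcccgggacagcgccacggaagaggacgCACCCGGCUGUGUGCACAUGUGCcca

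The data were counts per gene from rRNA-depleted RNA, read over 100 bases from 1 end. The libraries held 6401918 to 7651046 counts in the mimic group and 6079420 to 7405330 in the mock group. Levels are given as CPM, counts scaled to the size of the library with TMM factors, and 3 counts correspond to 0.392 to 0.493 CPM. Of 9 markers set for 293T cells, 7 had counts and LHX1 and NEFL had none. Their summed level was 1933 to 2014 CPM in mimic libraries and 1811 to 1912 CPM in mock libraries. Of the 7, KRT18, NEFM and NEFH rose at an adjusted p under 0.05 (edgeR), as did 6.80% of all tested genes. INA, KRT8, VIM and PAX2 did not pass, with log2 fold changes of −0.21, −0.02, 0.08 and 0.38. The part of these markers in the results below was not tested. The leukocyte, hepatocyte and endothelial markers summed to at most 1.31 CPM in any library, with PTPRC and PECAM1 at 0. Of 3 fibroblast markers DCN was at 0 and COL1A1 set nearly all of a sum of 38.0 to 43.0 CPM in mimic and 37.7 to 40.1 CPM in mock libraries. Mimic replicate 3 stood apart from the other mimic libraries, with 2.04 and 2.38 times the variation that counting alone gives, against 1.27 times between the other two and 1.45 to 1.52 times among mock libraries.

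The comparison asked whether mRNAs of the processing machinery differed between cells given the miR-941 duplex and cells given the scrambled oligonucleotide. DROSHA rose by 19.5% and TARBP2 fell by 15.5%, while DICER1, with a difference of −9.11%, stood just short of the threshold of the test. DGCR8, PRKRA and XPO5 did not pass. Thus 1 of the 6 genes rose and 1 fell at an adjusted p under 0.05, where 13.0% of all tested genes changed, 6.80% upward and 6.19% downward. In 3 of the 6, DROSHA, DICER1 and TARBP2, the groups did not overlap, against 28.3% of all tested genes. The median log2 fold change was −0.02 over the 6 genes and 0.00 over all tested genes, and the medians of its size were 0.12 and 0.12. A list of 6 genes is too short for these shares to be read as a result about it. All adjusted p-values are from edgeR's quasi-likelihood test over all tested genes unless DESeq2 is named. In bulk RNA, a change in the level per cell and a change in the share of cells cannot be told apart.

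**Figure D1:**
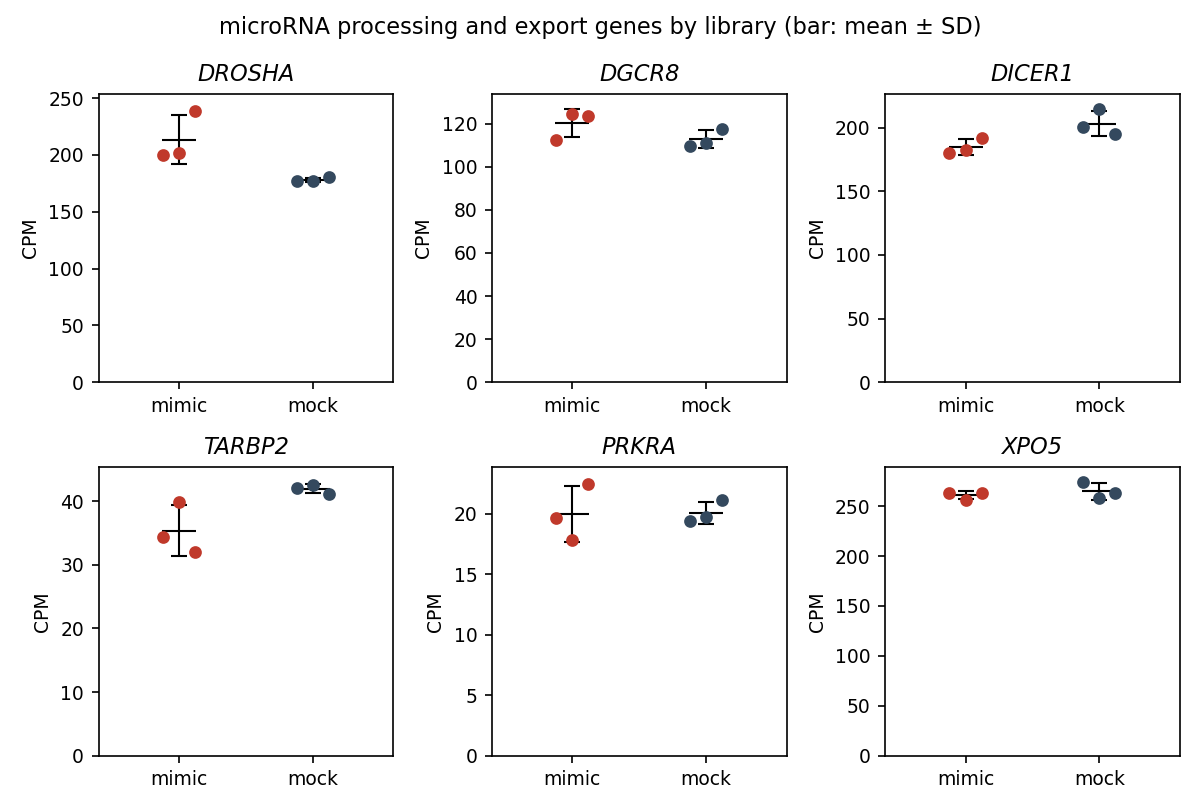
Each panel shows the CPM of 1 gene in 3 mimic libraries (left) and 3 mock libraries (right), as points with the mean and SD as a bar. DROSHA lies at 200 CPM or above in the mimic libraries and at 177 to 180 CPM in the mock libraries, and TARBP2 lies at 32.0 to 39.8 CPM in the mimic libraries and at 41.1 to 42.5 CPM in the mock libraries.

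The first step belongs to DROSHA, on chromosome 5 (GRCh38 chr5:31400497-31532196, minus strand, 7780 bases of exons). It had 200, 202 and 239 CPM in the mimic libraries, against 177, 177 and 180 CPM in the mock libraries. Every mimic library was above every mock library, and mimic replicate 3 was the highest by a wide margin. The means were 213 ± 21.9 CPM in the mimic group and 178 ± 1.77 CPM in the mock group (SD, n = 3 each). The log2 fold change was 0.26 ± 0.05 (SE, 95% interval 0.15 to 0.36), and the adjusted p 0.000345 (edgeR, quasi-likelihood). The size of the log2 fold change exceeded that of 80.4% of tested genes. Without mimic replicate 3 it was 0.17 ± 0.05 with an adjusted p of 0.00656.

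DGCR8, the partner that recognises the hairpin and holds DROSHA on it, lies on chromosome 22 (chr22:20080232-20111877, plus strand, 7315 bases of exons). It had 113, 124 and 123 CPM in the mimic libraries and 110, 111 and 118 CPM in the mock libraries. The 2 ranges overlapped, since mimic replicate 1 lay below mock replicate 3. The log2 fold change was 0.09 ± 0.06 with a 95% interval of −0.02 to 0.20 (adjusted p = 0.311, edgeR). The upper bound lies below the estimate for DROSHA, but the intervals of both genes overlap. DROSHA itself can cut hairpins in the DGCR8 mRNA, and the exons of DGCR8 hold the annotated microRNA genes MIR3618 and MIR1306. Neither was listed with a count, but this absence says nothing about such cutting. MIR3618 overlaps the exons by 88 bases and MIR1306 by 85, on the same strand, less than a read of 100 bases. Reads there cannot be told apart from those of DGCR8, and the annotation used for counting was not stated. The exons of DGCR8 also overlap 526 bases of an unnamed antisense gene (ENSG00000243762), counted at 11.3% of the DGCR8 level. They overlap 12 bases of TRMT2A on the opposite strand as well. TRMT2A, which encodes a tRNA methyltransferase, stood at 0.16 ± 0.06 (log2 fold change, adjusted p = 0.0627).

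XPO5, the export receptor, had the highest counts of the 6 genes (chromosome 6, chr6:43522330-43576075, minus strand). It had 263, 256 and 263 CPM in the mimic libraries and 275, 258 and 263 CPM in the mock libraries. The groups lay over each other, with a log2 fold change of −0.02 ± 0.05 (adjusted p = 0.813, edgeR). The 95% interval, −0.12 to 0.07, excludes a rise as large as the 0.26 estimated for DROSHA. Of its 8522 bases of exons, 348 overlap POLR1C, an RNA polymerase subunit gene on the opposite strand, which had 22.1% of its level and a log2 fold change of −0.10 ± 0.07 (adjusted p = 0.358).

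DICER1, which cuts the exported hairpin into a duplex, lies on chromosome 14 (chr14:95086228-95158010, minus strand, 12294 bases of exons). It had 180, 183 and 192 CPM in the mimic libraries, against 200, 214 and 195 CPM in the mock libraries. All mimic libraries were below all mock libraries, though mimic replicate 3 and mock replicate 3 were close. The means were 185 ± 6.13 CPM in the mimic group and 203 ± 9.90 CPM in the mock group. The log2 fold change was −0.14 ± 0.05 (95% interval −0.24 to −0.04), and edgeR gave a p of 0.00715 before adjustment and 0.0538 after it, just outside the threshold. It passed under 4 of 12 alternatives, with an adjusted p of 0.0490 under RLE factors, 0.0360 without scaling factors, 0.0496 without a filter on low counts and 0.00962 without mimic replicate 3. Under the other 8 the adjusted p was 0.0520 to 0.314, with 0.157 under DESeq2, 0.0769 with a replicate block, 0.214 without mimic replicate 1 and the highest without mock replicate 2. DICER1-AS1, which overlaps 80 bases of its exons on the opposite strand, was counted at 2.59% of its level.

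TARBP2 encodes a double-stranded RNA-binding protein that sits beside DICER1 and also restrains the kinase PKR (chromosome 12, chr12:53500921-53506431, plus strand, 4090 bases of exons). It had 34.3, 39.8 and 32.0 CPM in the mimic libraries, against 42.0, 42.5 and 41.1 CPM in the mock libraries. The mock libraries were close together, and all mimic libraries lay below them, mimic replicate 2 by the smallest margin. The means were 35.4 ± 4.04 CPM in the mimic group and 41.9 ± 0.71 CPM in the mock group. The log2 fold change was −0.24 ± 0.08 (95% interval −0.41 to −0.08), and the adjusted p 0.0403 (edgeR). The call was lost under DESeq2 (adjusted p = 0.17) and without mimic replicate 1 (0.149), mimic replicate 3 (0.163), mock replicate 1 (0.107), mock replicate 2 (0.112) or mock replicate 3 (0.0788).

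PRKRA encodes a relative of TARBP2 that also binds DICER1 and, unlike TARBP2, activates PKR (chromosome 2, chr2:178431414-178451512, minus strand, 3941 bases of exons). It had 19.6, 17.9 and 22.5 CPM in the mimic libraries and 19.4, 19.7 and 21.1 CPM in the mock libraries. The mimic libraries spanned the mock libraries on both sides. The log2 fold change was −0.01 ± 0.11 (adjusted p = 0.976, edgeR). With 128 to 149 counts per library its interval was the widest of the 6, −0.23 to 0.21, so that changes of the size seen in DROSHA or TARBP2 lie only just outside it. Exons of PRKRA overlap 85 bases of CHROMR, an antisense long non-coding RNA gene with 41.0% of its level (log2 fold change 0.20 ± 0.17), and 132 bases of PJVK, also antisense and at 11.7%. The strand setting of the counting was not recorded in the labels, so reads in these overlaps cannot be assigned to either gene. EIF2AK2, which encodes PKR itself, had 177 ± 16.6 CPM in the mimic group and 181 ± 12.4 CPM in the mock group (log2 fold change −0.03 ± 0.06, adjusted p = 0.770).

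**Figure D2:**
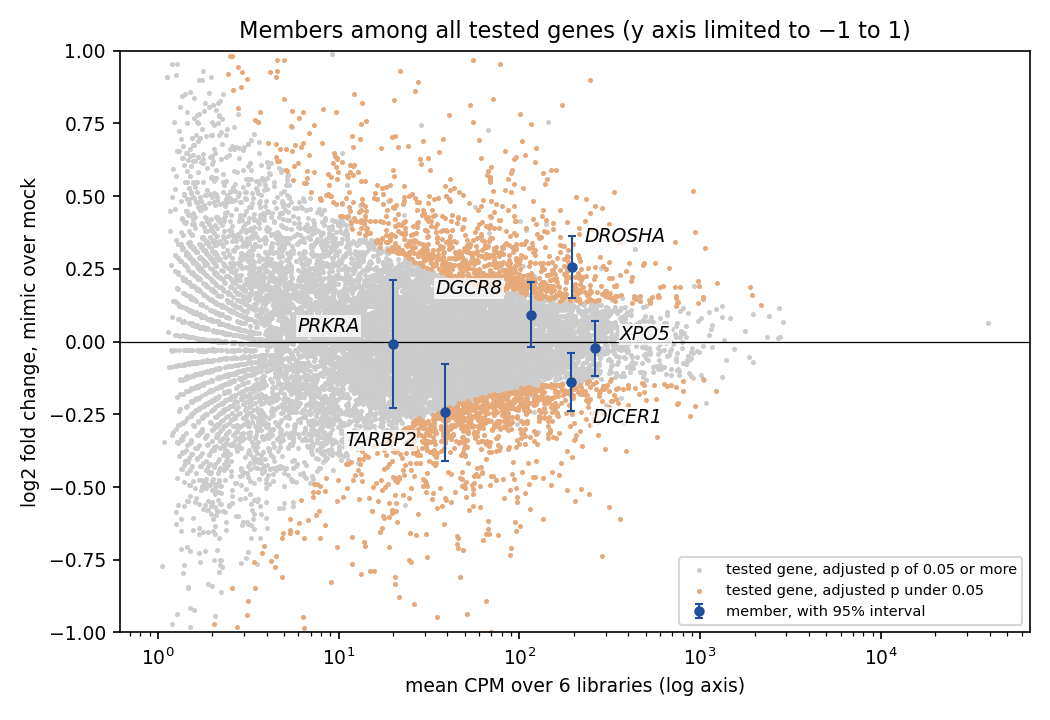
Each point is a tested gene, with its mean CPM over 6 libraries on a log axis and its log2 fold change, mimic over mock, from −1 to 1; the 6 genes are in blue with 95% intervals. DROSHA (0.26) and TARBP2 (−0.24) lie among the genes with an adjusted p under 0.05, DICER1 (−0.14) at their edge, and DGCR8, PRKRA and XPO5 inside the grey band.

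Per length, the order of the levels was nearly the same in both groups. On the scale of CPM per kilobase of annotated exon, XPO5 averaged 30.6 ± 0.46 in the mimic group and 31.1 ± 1.01 in the mock group (SD, n = 3 each). DROSHA averaged 27.4 ± 2.82 in the mimic group and 22.9 ± 0.23 in the mock group. The 2 genes overlapped in the mimic libraries, where DROSHA reached 30.7, and were apart in the mock libraries. DGCR8 averaged 16.4 ± 0.90 in the mimic group and 15.4 ± 0.58 in the mock group, and DICER1 15.1 ± 0.50 in the mimic group and 16.5 ± 0.81 in the mock group. Their order was thus opposite in the 2 groups, but their ranges overlapped in both. TARBP2 followed at 8.64 ± 0.99 in the mimic group and 10.2 ± 0.17 in the mock group, and PRKRA was lowest at 5.08 ± 0.59 in the mimic group and 5.10 ± 0.24 in the mock group, with no overlap between these neighbours in either group. Exon lengths are those of GENCODE release 29 over all transcripts of a gene, so that a gene using few of its exons is placed too low. In the same measure XPO5 was above 89.4% of 13145 tested protein-coding genes, DROSHA above 86.3% and PRKRA above 40.5%.

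Ratios of counts within a library do not depend on the scaling and show how the steps of the pathway stood to each other. DICER1 had 0.902, 0.907 and 0.804 counts per DROSHA count in the mimic libraries, against 1.13, 1.21 and 1.08 in the mock libraries. More DICER1 than DROSHA counts were present in every mock library and fewer in every mimic library. These counts are not scaled by exon length. Per kilobase of exon DROSHA was above DICER1 in both groups, at 27.4 against 15.1 in the mimic group and 22.9 against 16.5 in the mock group. XPO5 had 1.31, 1.27 and 1.10 counts per DROSHA count in the mimic libraries, against 1.55, 1.46 and 1.46 in the mock libraries. DROSHA had 1.78, 1.62 and 1.93 counts per DGCR8 count in the mimic libraries and 1.62, 1.59 and 1.53 in the mock libraries, and mimic replicate 2 stood just above the highest mock library. TARBP2 had 1.74, 2.23 and 1.42 counts per PRKRA count in the mimic libraries and 2.17, 2.15 and 1.95 in the mock libraries, which overlapped. The first 3 ratios separated the groups, with a two-sided exact permutation p of 0.1 each, the smallest that 3 against 3 libraries can give, and 0.133 after Benjamini-Hochberg adjustment over 4 ratios. The last had a permutation p of 0.4. The ratios that contain DROSHA share its values and are not independent of each other.

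**Figure D3:**
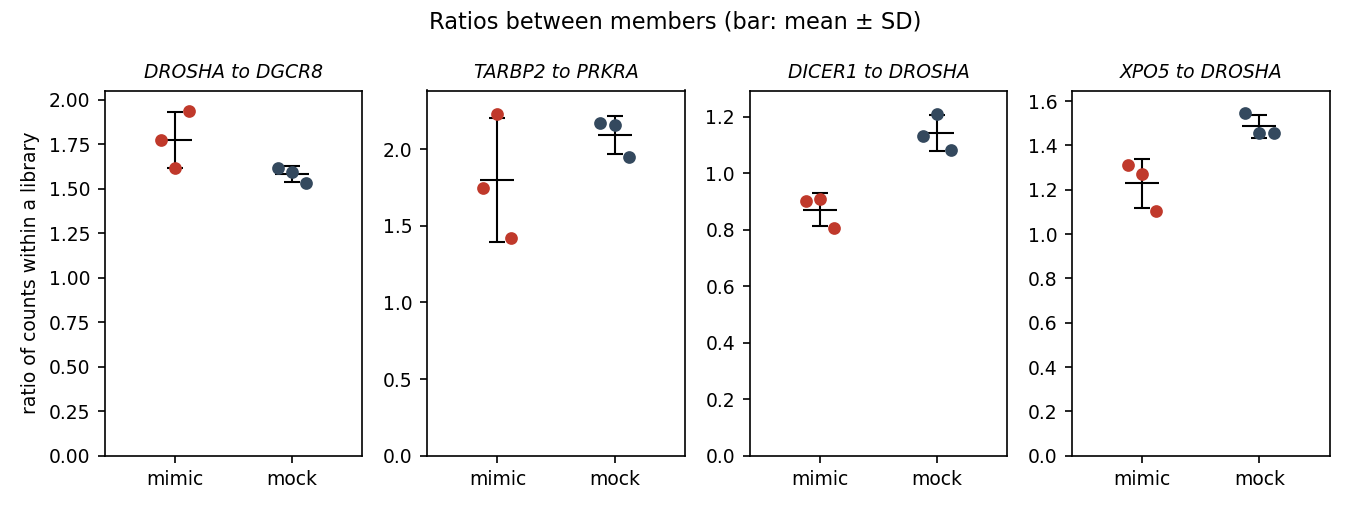
Each panel shows the ratio of the counts of 2 genes within a library, for 3 mimic libraries (left) and 3 mock libraries (right), with the mean and SD as a bar. The DICER1 to DROSHA ratio is 0.804 to 0.907 in the mimic libraries and 1.08 to 1.21 in the mock libraries, and the TARBP2 to PRKRA ratios overlap.

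A microRNA lowers mRNAs whose 3′ untranslated region pairs with its seed, so the transcripts of the 6 genes were searched for the miR-941 site GCCGGGT, which pairs with bases 2 to 8. It was present in none of their annotated transcripts, 21 for DROSHA, 10 for DGCR8, 15 for DICER1, 20 for TARBP2, 12 for PRKRA and 12 for XPO5, in any region. In the longest 3′ untranslated region of tested genes it was present in 634 of 13015, or 4.87%. Shorter matches were found in the longest 3′ untranslated region of DGCR8 and in the longest coding sequence of TARBP2, both shown here because 1 is the lone match in a 3′ untranslated region and the other lies in the gene that fell. Capitals mark the matching bases, and the strand shown is that of the mRNA, from GENCODE release 29 on GRCh38.
DGCR8, GCCGGG for bases 3 to 8: catgcttcaagGCCGGGgcaggggagcc
TARBP2, CCGGGT for bases 2 to 7: aatttcaccttCCGGGTcaccgttggcg

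The DGCR8 match lies at chr22:20111773-20111778 in the last of 13 exons, at base 1665 of 1767 of the 3′ untranslated region. Such a match to bases 3 to 8 was present in 2604 of the 13015 genes, or 20.01%. The TARBP2 match lies at chr12:53502153-53502158 in exon 2 of 9, at base 192 of the 1101 bases of coding sequence, and 20.4% of genes had a match of that kind in the coding sequence. DROSHA, DICER1, PRKRA and XPO5 had no match to bases 2 to 7 or 3 to 8 in these 2 regions. In the 5′ untranslated region DGCR8 had 1 match to bases 2 to 7, and DICER1 and XPO5 had 1 each to bases 3 to 8. TARBP2 is the called gene with a match to bases 2 to 7, at a log2 fold change of −0.24, and its call was lost under 6 of 12 alternatives. DGCR8, with a match of that kind in the 5′ region and the 3′ match to bases 3 to 8, was not called (0.09). A link between matches and changes was not tested. A match in the sequence is a description and not evidence of binding.

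Most cofactors of the nuclear step did not pass the test. The list held 20 genes that bind primary transcripts, the cap or DROSHA and DGCR8, all tested, of which 2 rose, 2 fell and 16 did not pass, with a median log2 fold change of −0.01. The 4 changed genes are 20% of the list, against 13.0% of all tested genes. SAFB, a nuclear matrix RNA-binding protein, had 200, 199 and 231 CPM in the mimic libraries and 182, 181 and 190 CPM in the mock libraries (log2 fold change 0.19 ± 0.05, adjusted p = 0.00784). Its highest library was mimic replicate 3, as for DROSHA, without which the log2 fold change was 0.12 with an adjusted p of 0.0956. HNRNPA1, a splicing regulator that also binds some primary microRNAs, averaged 262 ± 6.63 CPM in the mimic group and 237 ± 12.2 CPM in the mock group (adjusted p = 0.0379). SRSF3, a splicing factor that binds near hairpin bases, averaged 353 ± 9.16 CPM in the mimic group and 395 ± 10.8 CPM in the mock group (adjusted p = 0.00992). ADARB1, an adenosine deaminase that edits double-stranded RNA, averaged 37.8 ± 1.30 CPM in the mimic group and 44.1 ± 2.04 CPM in the mock group (adjusted p = 0.0468). None of these 4 calls held under all 12 alternatives tried, and 1 or 2 of the 20 genes were called with any 1 library left out. SAFB shares stretches of 100 bases with SAFB2, and HNRNPA1 with 11 other annotated loci, HNRNPA1L3 at 36.8% of its level among them, so that both are uncertain. The helicases DDX5 and DDX17, which join the DROSHA complex, had log2 fold changes of −0.03 ± 0.04 and 0.07 ± 0.04 and did not pass.

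Export factors other than XPO5 mostly did not pass the test. Of 12 genes of the Ran cycle and of other exportins 1 rose and 1 fell, with a median log2 fold change of 0.04. These are 16.7% of the list, near the 13.0% of all tested genes. RANBP1, which helps RANGAP1 to end the export complex by GTP hydrolysis, had 337, 332 and 344 CPM in the mimic libraries, against 295, 284 and 291 CPM in the mock libraries. All mimic libraries lay above all mock libraries, with a log2 fold change of 0.22 ± 0.05 (adjusted p = 0.000295, edgeR), and the call held under all 12 alternatives. RANBP1 exons overlap 393 bases of TRMT2A on the other strand, which had 30.1% of its level, and it shares stretches of 100 bases with the pseudogene RANBP1P1. RANGAP1, the GTPase-activating protein, averaged 286 ± 9.06 CPM in the mimic group and 319 ± 8.66 CPM in the mock group (log2 fold change −0.16 ± 0.05, adjusted p = 0.0147), and its call was lost on leaving out mimic replicate 1, or either mock replicate 1 or 3. RAN averaged 486 ± 15.03 CPM in the mimic group and 473 ± 28.5 CPM in the mock group (adjusted p = 0.666).

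Among 17 genes that tail, trim or degrade microRNA precursors, 15 were tested, 1 fell and none rose, with a median log2 fold change of −0.01. The 1 gene is 6.67% of those tested, near the 6.19% of all tested genes that fell. TENT2, a polymerase that adds nucleotides to microRNA ends, had 48.1, 48.3 and 48.5 CPM in the mimic libraries, against 57.0, 54.6 and 61.1 CPM in the mock libraries. The mimic libraries were nearly equal and all below the mock libraries, with a log2 fold change of −0.25 ± 0.07 (adjusted p = 0.0114, edgeR). It was lost under DESeq2 (0.0699) and without mock replicate 3 (0.0926). LIN28B, which blocks let-7 maturation and is the LIN28 gene with counts here, averaged 162 ± 9.88 CPM in the mimic group and 148 ± 6.68 CPM in the mock group (adjusted p = 0.0999). LIN28A was listed in no library. Of 14 genes related to TARBP2 and PRKRA by binding double-stranded RNA, 12 were tested, and ADARB1, named above, was the 1 that fell, a share of 8.33% against 6.19% of all tested genes. The call of ADARB1 held under 4 of 12 alternatives.

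Downstream of the 6 genes, 4 of 7 Argonaute and TNRC6 genes fell and none rose, with a median log2 fold change of −0.21. The 4 are 57.1% of the list, against 6.19% of all tested genes that fell, and DESeq2 called 2 of the 7. TNRC6C, a scaffold that links Argonaute to deadenylation, averaged 42.2 ± 3.79 CPM in the mimic group and 62.9 ± 5.52 CPM in the mock group (log2 fold change −0.58 ± 0.08, adjusted p = 2.22e-08). Its exons overlap 1438 bases of TNRC6C-AS1 on the opposite strand, which had 2.74% of its level (log2 fold change −0.45 ± 0.38). TNRC6A, a scaffold of the same family, averaged 220 ± 12.5 CPM in the mimic group and 257 ± 7.69 CPM in the mock group (−0.23 ± 0.05, adjusted p = 0.000500). The calls of TNRC6C and TNRC6A held under all 12 alternatives. AGO4, an Argonaute, averaged 45.1 ± 1.35 CPM in the mimic group and 54.2 ± 1.15 CPM in the mock group (−0.26 ± 0.07, adjusted p = 0.00809), a call lost under DESeq2 (0.0573). In TNRC6C, TNRC6A and AGO4 the groups did not overlap. AGO1 went the other way without passing, at 127 ± 0.65 CPM in the mimic group and 118 ± 0.68 CPM in the mock group (0.11 ± 0.05, adjusted p = 0.201). Its groups did not overlap either, which makes 4 of the 7 genes, against 28.3% of all tested genes. AGO3 (0.05 ± 0.10) and TNRC6B (−0.01 ± 0.06) did not pass. A list of 7 genes is too short for these shares to be read as a result about it. AGO2, the Argonaute that can slice its target, had 58.2, 64.0 and 59.0 CPM in the mimic libraries and 63.5, 67.2 and 80.3 CPM in the mock libraries (−0.21 ± 0.07, adjusted p = 0.0391). Its groups overlapped, and mock replicate 3 was the highest by a wide margin. Without that library the log2 fold change was −0.11 (adjusted p = 0.410), and the call held under 8 of 12 alternatives.

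Host transcripts of microRNAs, the substrates of DROSHA, were sparse. Of 29 genes with a symbol of the form MIR17HG, 12 passed the filter, at 1.47 to 22.1 CPM. None of the 12 passed by edgeR. DESeq2 called none either, but it gave no adjusted p for the 2 genes named here, so its count does not cover all 12. By edgeR 1 of the 12 had an unadjusted p under 0.05, against 25.5% of all tested genes. That gene, MIR210HG, had 6.46, 10.5 and 3.62 CPM in the mimic libraries and 4.75, 3.89 and 3.77 CPM in the mock libraries (log2 fold change 0.74 ± 0.31, adjusted p = 0.146 by edgeR). Mimic replicate 2 was the highest and mimic replicate 3 lay below every mock library. Without mimic replicate 2 the log2 fold change was 0.31 and without mimic replicate 3 it was 1.01, and the gene passed under 3 of 12 alternatives and failed under 8. MIRLET7BHG had 1.85, 4.05 and 2.05 CPM in the mimic libraries and 3.66, 3.34 and 4.59 CPM in the mock libraries (log2 fold change −0.52 ± 0.27, adjusted p = 0.214). Its groups overlapped in mimic replicate 2, without which the log2 fold change was −0.98 with an adjusted p of 0.0328. Such a gene count does not separate unspliced primary transcripts from spliced ones.

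**Figure D4:**
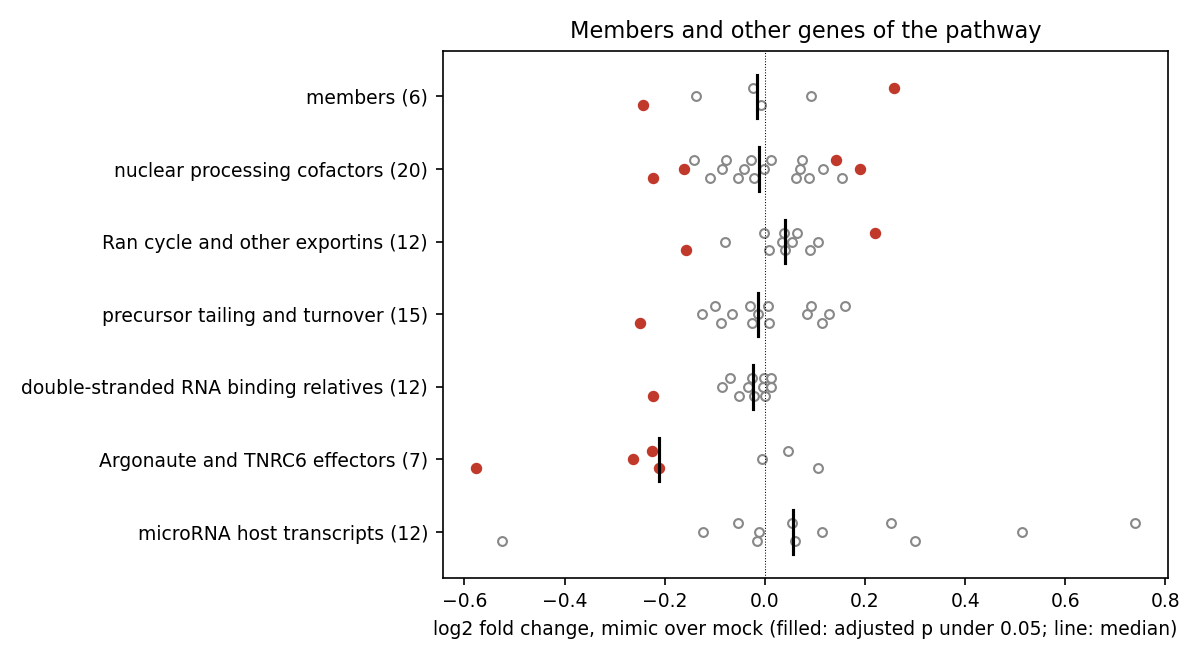
Each point is the log2 fold change, mimic over mock, of 1 tested gene, by list from the 6 genes at the top to the host transcripts, with the number tested in brackets, the median as a line and an adjusted p under 0.05 as a filled point. The filled points lie on both sides of 0 for the 6 genes, the nuclear cofactors and the Ran cycle, and below 0 for the Argonaute and TNRC6 genes (median −0.21).

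The genes whose levels followed each of the 6 most closely over the 6 libraries were taken from 12886 tested genes that averaged 5 CPM or more, by Pearson's r of log2 CPM. For DROSHA these were ILF2 (r = 0.997) and USP42 (0.994). ILF2, a member of the cofactor list, had 367, 367 and 402 CPM in the mimic libraries and 349, 348 and 350 CPM in the mock libraries, so that mimic replicate 3 was the highest for it as well, and its adjusted p was 0.0876. For DICER1 they were CIBAR1 (0.996) and TMEM181 (0.992), for TARBP2 PSMD14 (0.996) and CYLD (0.988), and for DGCR8 PRR12 (0.990) and H2BC12 (0.983). For PRKRA they were ATXN7L2 (0.998) and EGR1 (0.994), and for XPO5 STMN1 (0.988) and BBOF1 (0.987). The values describe 6 points each, which share the library and the group. They are the highest of a search over 12886 genes, which selects for an r near 1, and no likeness was tested. PRKRA, which did not pass the test, reached values as high as DROSHA.

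**Figure D5:**
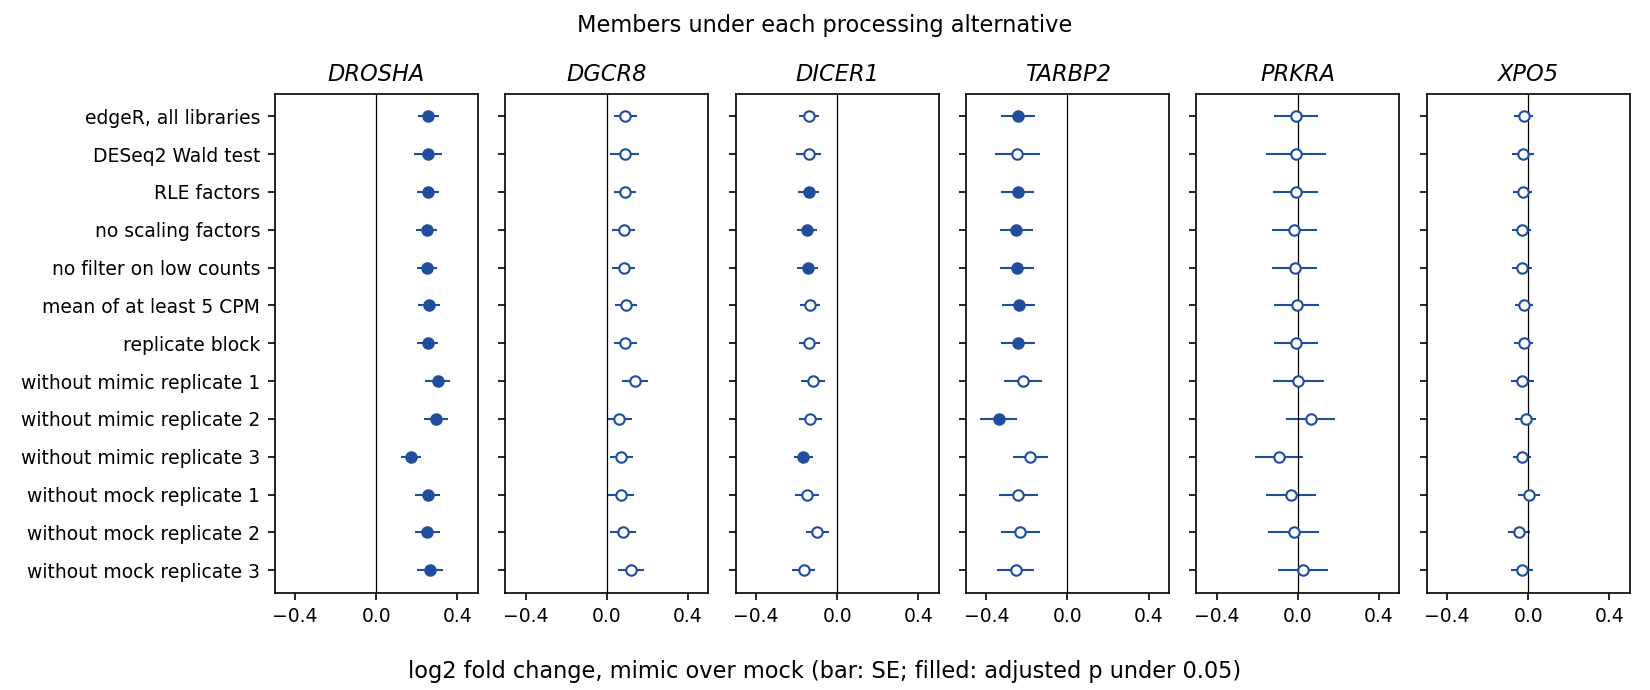
Each panel shows the log2 fold change, mimic over mock, of 1 gene by edgeR on all libraries at the top and 12 alternatives below it, with the SE as a bar and an adjusted p under 0.05 as a filled point. DROSHA is filled throughout, at 0.17 to 0.30, TARBP2 and DICER1 are filled in part, and the other 3 genes are never filled.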

How the data were processed

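The authors deposited 1 table per library with whole-number counts per Ensembl gene, unnormalized and listing genes with at least 1 count; an absent gene was taken as 0. Per the submitters' processing notes STAR, edgeR and the build hg19 were used, with no versions; the counting program, annotation and strand setting were not stated there. Genes were filtered with filterByExpr by group (15607 genes holding 99.7% of counts), with TMM scaling factors of 0.994 to 1.01. Groups were compared by the quasi-likelihood F-test of edgeR (robust, group as the only term), two-sided, Benjamini-Hochberg adjusted over all tested genes, threshold 0.05; it was tested on simulated data. Standard errors and 95% intervals derive from the test statistic, and CPM errors are SDs over 3 libraries. The common biological coefficient of variation was 3.82%. Alternatives were DESeq2, RLE or no scaling factors, no filter or a mean of at least 5 CPM, a replicate block and leaving out each library. Log2 CPM used a prior count of 2. Software was edgeR 4.0.16 and DESeq2 1.42.0 in R 4.3.3. Symbols came from a gene name table, and lengths, exon overlaps, shared stretches and sites from GENCODE release 29 (GRCh38), a build other than that of the counts. The genes and lists were chosen with earlier results of these data known. Named list genes were the changed ones by smallest p, up to 4 in each direction, or 2 where none passed. Some list genes that did not pass are given beside them. Counts carry no molecular identifiers, so duplicates could not be removed.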

Additional observations from a re-analysis of the deposited data

How the results depend on the processing

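The rise of DROSHA passed under all 12 alternatives (log2 fold change 0.17 to 0.30), and DGCR8, PRKRA and XPO5 passed under none. Leaving out each library in turn gave 0.06 to 0.14 for DGCR8, −0.095 to 0.064 for PRKRA and −0.045 to 0.0022 for XPO5, so the last 2 had no settled sign. TARBP2 kept its sign, at −0.34 to −0.18 with a library left out, and passed under 6 of 12 alternatives (−0.25 under DESeq2, not passed). DICER1, at −0.17 to −0.10 with a library left out, passed under 4, with −0.14 under RLE factors, −0.15 without scaling factors and −0.15 without a filter. The cause of these moves was not tested. The number of changed genes was 1015 under DESeq2 and 1302 to 2061 with a library left out, lowest without mock replicate 1. The ratios kept their sign with a library left out, at 0.10 to 0.23 (log2) for DROSHA to DGCR8, −0.43 to −0.33 for DICER1 to DROSHA, −0.33 to −0.20 for XPO5 to DROSHA and −0.41 to −0.08 for TARBP2 to PRKRA. Under DESeq2 the changed genes numbered 1 of the nuclear cofactors, 2 of the Argonaute and TNRC6 genes and 0 of the tailing genes and the double-stranded RNA-binding relatives. Without a filter they numbered 2 of the nuclear cofactors, 0 of those relatives and 1 host transcript. With a library left out the ranges were 1 to 2 nuclear cofactors, 1 to 2 Ran cycle genes, 0 to 2 tailing genes, 0 to 1 relatives, 3 to 4 Argonaute and TNRC6 genes and 0 to 1 host transcripts.

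Same-numbered libraries of the 2 groups did not deviate together (correlations 0.09, −0.08 and −0.05), so no pairing by number was seen. With 3 libraries per group, such a check cannot tell whether they shared a day or batch. With the replicate block, 2 nuclear cofactors, 0 relatives and 1 host transcript were changed, and DROSHA was 0.25. Depth limits PRKRA most, with 128 to 149 counts per library.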
